A study of Mus musculus with 2 samples.

Results

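Chemokines are small secreted proteins that attract cells along a concentration gradient, and their receptors are G protein-coupled receptors best known from leukocytes. CXC and CC ligands are named after the spacing of conserved cysteines, and 1 ligand often binds several receptors. The atypical receptors, named Ackr, bind chemokines without the usual G protein signal and take them up, so that they shape how much ligand is available. Epithelial cells and fibroblasts release many of the inflammatory ligands under the control of NF-κB, whereas Cxcl12 is a constitutive product of stromal cells.

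All genes whose symbol on the array was that of a numbered Ccl, Cxcl, Ccr, Cxcr or Ackr gene, together with Cx3cl1, Cx3cr1, Xcl1 and Xcr1, were followed in the cell line mDE6, which derives from mouse odontogenic epithelium. These were 58 genes with 82 probes, of 37074 gene names with 56605 probes on the array, and comprised 36 ligands and 22 receptors. By the same naming, the RefSeq gene table held 62 genes, and Ccl21b, Ccl21c, Ccl21d and Ccl27b had no probe under these names. One array was hybridised with RNA of control cells and 1 with RNA of cells treated for 6 h with CHIR99021, an inhibitor of the kinase GSK-3 that activates the β-catenin pathway. The control is labelled 0/1%DMSO treated and the dose 5 mM, whereas the Methods give untreated cells and 5 μM. With 1 array per condition there was no replicate of either, so no difference below has a test, and a difference between cultures cannot be told apart from an effect of treatment. Both arrays lay on 1 slide, and the place on the slide and the treatment cannot be told apart either. In such bulk RNA, fewer cells of a type and less RNA per cell cannot be told apart.

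Each value is the processed signal of a spot, its brightness after background subtraction, in intensity units. For the ratio of CHIR99021-treated to control cells, each signal was divided by the 75th percentile of all signals on that array, at 487 in control and 469 in treated cells. A probe was called measured on an array where the software marked its spot as well above background, and a gene was tested where a probe was so marked on at least 1 array, which left 18837 genes. The lowest signal so marked was 23.7 in control and 26.3 in treated cells. None of the member spots was saturated. Signals of different probes depend on the probe, so only the same probe is compared between arrays. A gene was counted as lower at a ratio of at most 0.66 and as higher at a ratio of at least 1.5. The Methods use the former limit together with a Z-score limit, and a Z-score is added below as a further condition. The error given with a log2 ratio is the standard error from the software's own estimate for each spot, and it covers neither cultures nor labelling. Among 264 probes printed 10 times, the SD of the log2 ratio between spots had a median of 0.03, but 253 of these probes had signals over 10000. For the 3 such probes with a signal of 20 to 100, the median SD was 0.22.

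The labels were first set against known genes. Lef1, a nuclear partner and target of β-catenin, had a signal of 239 in control and 690 in treated cells, a ratio of 3.0. Of 9 Wnt feedback genes, 7 were tested and 6 of these were higher, where 8.05% of all tested genes were. Axin2 and Nkd1 among them were measured on the CHIR99021 array only. Axin2 gave 7.23 in control and 37.9 in treated cells, at least 1.66-fold higher, with a low treated signal. Nkd1 gave 8.45 and 588, at least 25.8-fold higher. For the cell type, the epithelial markers Cdh1, Epcam and Krt8 were measured on neither array, whereas Trp63, a transcription factor of stratified epithelia, gave 2306 and 2896. All 9 mesenchymal markers, Col1a1 and Vim among them, were well above background on both arrays. Of 5 endothelial markers, 1 was tested, Pecam1, measured in control cells only. Of the 8 epithelial markers, 3 were measured on both arrays, so the label odontogenic epithelial cells rested on few of its defining genes.

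Of the 58 genes, 24 were measured in control and 22 in treated cells, 19 of them in both. Over all genes on the array, 48.9% were measured in control and 47.6% in treated cells. Of the 36 ligands, 21 were measured on at least 1 array and 17 on both, where 50.8% and 45.6% of all genes were. Of the 22 receptors, 6 were measured on at least 1 array, and Ackr3 and Ackr4, both atypical, were the ones measured on both. Not one of the 18 conventional receptors was measured on both arrays, and 4 of them, Ccr2, Cxcr4, Xcr1 and Ccr8, were measured on 1.

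**Figure D1:**
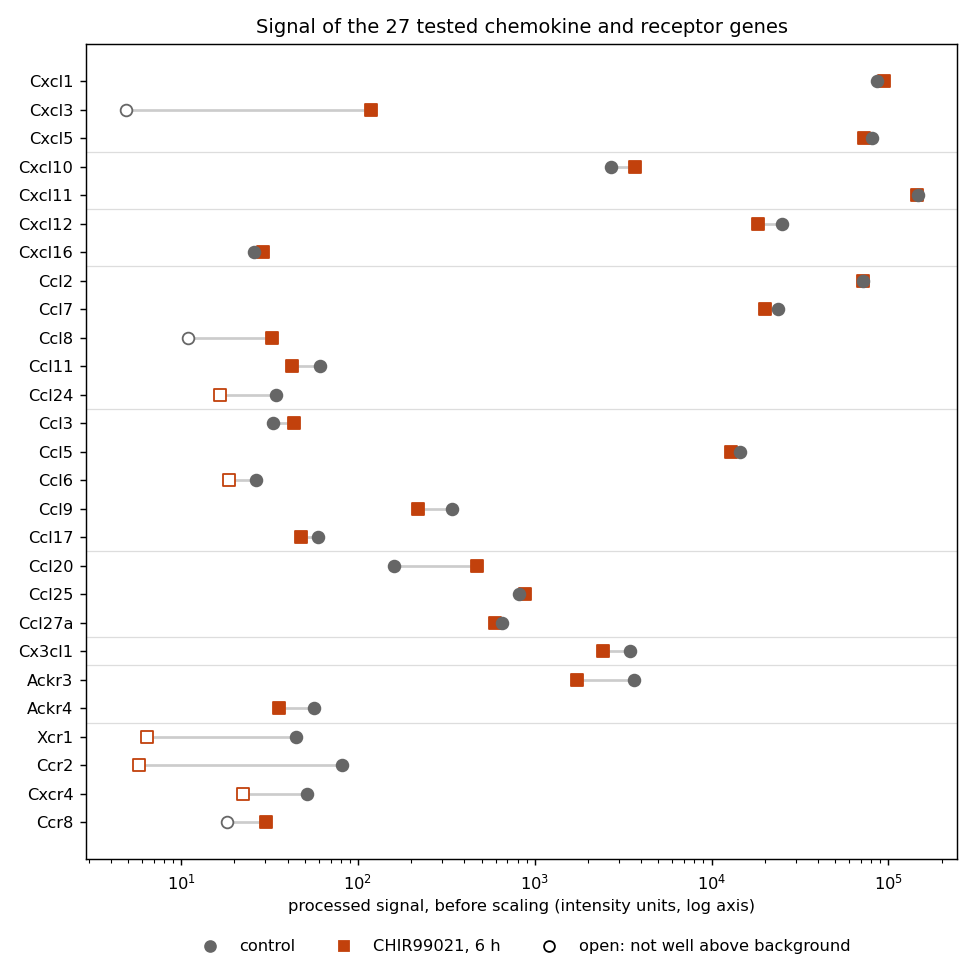
Processed signal, in intensity units on a log axis and before scaling, of the main probe of each of the 27 tested genes in control cells (grey circles) and cells treated with CHIR99021 for 6 h (orange squares), grouped by role; open symbols were not well above background. Most pairs nearly coincide, the pairs of Ackr3 (3642 and 1726) and Ccl20 (161 and 473) are set apart with both symbols filled, and 8 genes have 1 open symbol; rows are different probes and are not compared with each other.

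Across the 27 tested genes, the median log2 ratio was -0.10, against 0.02 over all tested genes, and 16 of the 27 had a ratio below 1. A ratio of at most 0.66 was found for 5 of the 27, where 9.67% of all tested genes had one, and a ratio of at least 1.5 for 4, where 8.05% of all tested genes had one. The 5 were Ackr3, Ccr2, Cxcr4, Xcr1 and Ccl24, and the 4 were Ccl20, Cxcl3, Ccl8 and Ccr8. Only Ackr3 and Ccl20 of these were measured on both arrays. Among the 19 members measured on both, 1 was lower, against 5.76% of all genes measured on both, and 1 was higher, against 5.06%. When a Z-score was also required, which sets each log2 ratio against the 500 probes nearest in mean signal, Ackr3 stayed lower, where 3.22% of all tested genes met both conditions, and Ccl20 and Cxcl3 stayed higher, where 2.64% did. The median of the members was negative under each of the 6 scalings other than the one used, between -0.19 and -0.02.

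**Figure D2:**
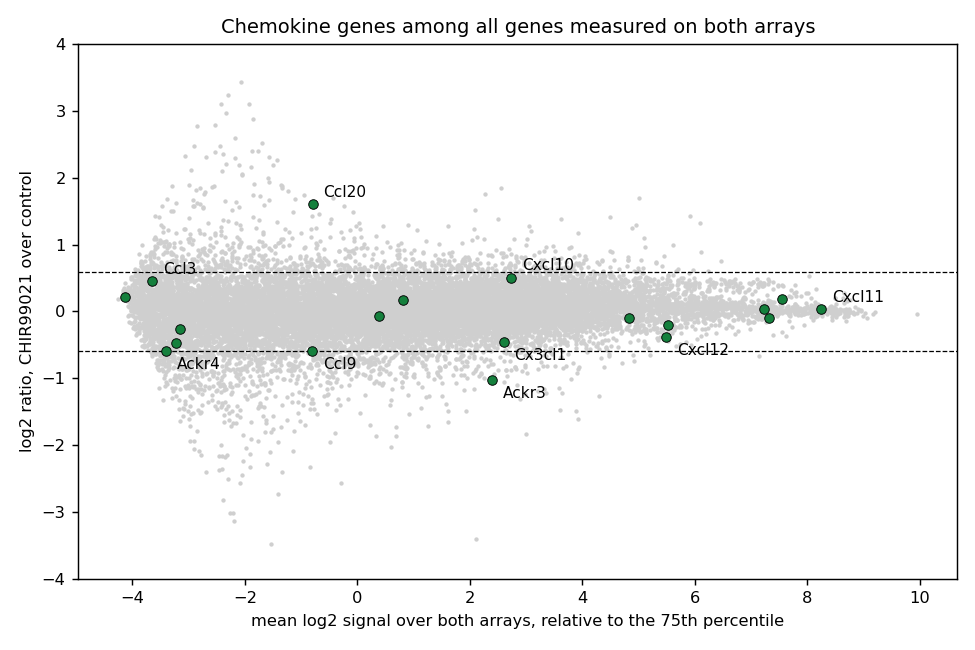
Log2 ratio of CHIR99021-treated over control cells against the mean log2 signal relative to the 75th percentile, for the 16886 genes measured on both arrays (grey) and the 19 chemokine and receptor genes among them (green). Dashed lines mark ratios of 0.66 and 1.5; Ackr3 at -1.02 and Ccl20 at 1.61 are the 2 chemokine genes past them, and the grey points spread more widely at low signal.

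Ackr3, the atypical receptor also known as Cxcr7, which binds and takes up Cxcl12 and Cxcl11, gave the lowest ratio of the members measured on both arrays. Its signal was 3642 in control and 1726 in treated cells, both well above background, and the ratio was 0.492. The log2 ratio was -1.02 ± 0.20 (software error), with a Z-score of -3.80, and Ackr3 ranked 269 from the lowest of 16886 genes measured on both arrays. The array has 1 probe for this gene, so no other probe stands beside it. That probe lies at chr1:92112211-92112270 on the plus strand (mm9), and its first 30 of 60 bases are shown to identify what was measured.
Ackr3: acttcgggctgcaaacccgtgaacaaggga

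The ligands of Ackr3 were measured by 2 probes each. Cxcl12, which also signals through Cxcr4 and guides stem cells and leukocytes, had a signal of 24957 in control and 18422 in treated cells at its main probe, a ratio of 0.766. The log2 ratio was -0.39 ± 0.20 (software error), with a Z-score of -1.91. At the other Cxcl12 probe the signals were 6067 and 4157 and the ratio 0.711. Both probes were thus lower in treated cells by a similar ratio, and neither passed 0.66. They lie on chromosome 6, at chr6:117131227-117131286 and chr6:117125026-117125085 on the plus strand (mm9). Their first 30 bases show that they read different sequence.
Cxcl12, main probe: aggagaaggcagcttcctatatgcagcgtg
Cxcl12, other probe: gctgtaaacctcctaccgtatgtgggaatt

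Cxcl11, an interferon-induced ligand of Cxcr3 and Ackr3, had a signal of 146867 in control and 145155 in treated cells at its main probe, a ratio of 1.03. Its other probe gave 2853 and 3037, a ratio of 1.1. The main probe shares a run of 20 bases with the promoters of 21 genes in the RefSeq table, on either strand, whereas each of the other 81 member probes shares such a run with at most 1 gene. Of 56689 array probes searched, 284 share a run with 10 or more genes. The stretches are shown because they separate the probes, with the bases that lie in a run held by 10 or more genes in capitals. They lie at chr5:92788567-92788626 and chr5:92788640-92788699 on the minus strand (mm9).
Cxcl11, main probe: agaccaggagtttcaGGACAGCCAGGGCTA
Cxcl11, other probe: tatacaccttaatttcagcacttgaaaggc
The signal of the main probe cannot be assigned to Cxcl11 alone, and how much of it came from other transcripts was not tested. The log2 ratio of the main probe, 0.04 ± 0.20, was smaller than its software error.

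Ackr4, an atypical receptor that takes up the homeostatic ligands Ccl19, Ccl21 and Ccl25, was dim. Its signal was 56.3 in control and 36.0 in treated cells, a ratio of 0.664 that lay just outside the limit of 0.66. The log2 ratio of -0.59 ± 0.36 (software error) had a Z-score of -0.34, and the other Ackr4 probe was measured on neither array. Among its ligands, Ccl19 and Ccl21a were measured on neither array. Ccl25, which draws T cells to thymus and gut, gave 809 and 878 at its main probe, a ratio of 1.13. A further Ccl25 probe gave 71.5 and 86.7, a ratio of 1.26, while another was measured on the control array only, at 33.2 against 14.7, and the last on neither. The Ccl25 probes measured on both arrays thus both had ratios above 1. The one measured in control cells only was dim and pointed the other way, with its treated signal under the lowest measured one.

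Among the conventional receptors, 3 were measured on the control array only. Cxcr4, the signalling receptor of Cxcl12, gave 51.7 in control cells and 22.3 in treated cells, where it was not well above background, and was at least 1.89-fold lower in treated cells. The limit was computed against the lowest signal marked as well above background on that array. It holds for the background subtraction used and leaves out the error of the measured spot. Ccr2, the receptor of Ccl2 and Ccl7 on monocytes, gave 81.7 and 5.76, at least 3.0-fold lower in treated cells. Xcr1, a receptor of cross-presenting dendritic cells, gave 44.9 and 6.42, at least 1.65-fold lower. With normexp background correction the ratios were 0.816 for Cxcr4 and 0.686 for Xcr1, so neither passed 0.66 there, and 0.479 for Ccr2, which did. Ccr8, a receptor of regulatory and Th2 T cells, was measured on the CHIR99021 array only, at 18.1 in control and 30.3 in treated cells, at least 1.33-fold higher. The other Cxcr4 probe was measured on neither array. The leukocyte markers Ptprc, Cd68, Itgam, Csf1r and Cd3e were measured on both arrays, with ratios of 1.07, 1.24, 0.862, 1.01 and 0.881 in this order, and Lyz2 on the control array only. Tyrobp and Laptm5 were measured on neither array. The part of such cells in the receptor values was not tested.

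Spot quality moved with the values measured on 1 array. A spot was called uneven where the SD of its pixels over its mean signal exceeded 0.261, the 99th percentile of the measured spots in the earlier rows of the array. The measured spots of Ccr2 (0.357), Xcr1 (0.285), Ccl24 (0.324) and Cxcl3 (0.447) were uneven, whereas those of Cxcr4 (0.248), Ccr8 (0.151), Ccl6 (0.190) and Ccl8 (0.216) were not. All 4 uneven spots lay in the later rows, past row 192 of 384. Of the 8 members measured on 1 array, 50% were uneven, as were 40.9% of the 1951 genes measured on 1 array in all. Of the 19 members measured on both arrays, 1 had an uneven spot, Ccl27a at 0.263, or 5.26%, and 2.23% of all genes measured on both had one. Ackr3 and Ccl20 had even spots in the later rows, at rows 222 and 275. The part of spot position and evenness in these values was not tested.

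**Figure D3:**
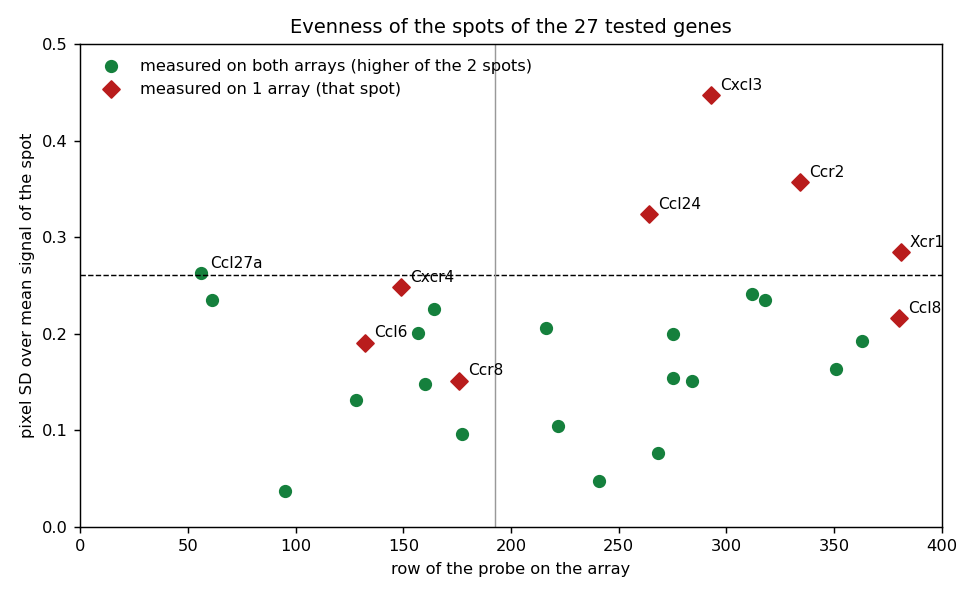
Unevenness of the spots of the 27 tested genes, as pixel SD over mean signal, against the row of the probe on the array, for genes measured on both arrays (green circles, the higher of the 2 spots) and on 1 array (red diamonds, that spot). The dashed line marks the limit of 0.261 and the grey line the middle of the array; Cxcl3, Ccr2, Ccl24 and Xcr1 lie above the limit in the later rows.

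Ccl20, the ligand of Ccr6 that epithelia release to draw dendritic cells and Th17 cells, gave the highest ratio of the members measured on both arrays. Its signal was 161 in control and 473 in treated cells, a ratio of 3.05. The log2 ratio was 1.61 ± 0.21 (software error), with a Z-score of 3.78, and Ccl20 ranked 60 from the highest of the 16886 genes. Its receptor Ccr6 was measured on neither array. With normexp background correction the Ccl20 ratio was 2.43, still past 1.5. The probe lies at chr1:83115500-83115559 on the plus strand (mm9), and its first 30 bases identify it.
Ccl20: tagatctgaattttctatgtttagctattt

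Ccl27a, a skin ligand for T cells, gave 651 and 600 at its main probe, and its 3 probes had ratios of 0.859 to 0.956. Ccl28, a mucosal epithelial ligand, was measured on neither array.

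Of the CXC ligands that attract neutrophils through Cxcr2, Cxcl1 gave 85851 in control and 93980 in treated cells, a ratio of 1.14, and Cxcl5 gave 80873 and 73122, a ratio of 0.938. Both log2 ratios, 0.18 and -0.09, were smaller than their software error of 0.20. Cxcl3, a close relative of Cxcl1, was measured on the CHIR99021 array only, at 4.86 in control and 118 in treated cells, and was at least 5.19-fold higher in treated cells. Its treated spot was the most uneven of the 27, at 0.447, and its ratio of scaled signals depended on the background correction, at 2.70 with normexp. Cxcl2 and Cxcl15 were measured on neither array, nor were the receptors Cxcr1 and Cxcr2. Thus 2 of the 5 neutrophil ligands were measured on both arrays, and neither passed a limit. The first 30 bases of the Cxcl3 probe, at chr5:91216694-91216753 on the plus strand (mm9), are given because its value turns on 1 spot.
Cxcl3: ctaagtttaaccaagcctattcttaacttg

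Of the ligands of Cxcr3, which draw T cells and are induced by interferons, Cxcl10 had the higher ratio. Its signal was 2716 in control and 3712 in treated cells, a ratio of 1.42, with a log2 ratio of 0.50 ± 0.20 (software error) and a Z-score of 1.46. The ratio lay under 1.5 with the scaling used and reached 1.5 with spike-in scaling. A second Cxcl10 probe was measured on neither array. Cxcl9 and the receptor Cxcr3 were measured on neither array.

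The CC ligands of monocytes and eosinophils gave values on both sides of a ratio of 1. Ccl2, the principal monocyte attractant, gave 72306 in control and 71615 in treated cells, a ratio of 1.03 that was 0.990 without scaling. Ccl7, which shares the receptor Ccr2, gave 23912 and 20065, a ratio of 0.870, where the Z-score was -1.20. Ccl11, the eosinophil attractant eotaxin, was dim at 61.2 and 42.5, a ratio of 0.720 and a log2 ratio of -0.47 ± 0.30. No limit was passed by these 3. Ccl24, another eotaxin, gave 34.3 in control cells and 16.5 in treated cells, where it was not well above background, and was at least 1.26-fold lower. Ccl8, a monocyte attractant, was measured on the CHIR99021 array only, at 10.9 and 32.6, at least 1.43-fold higher. Ccl12 and Ccl26 were measured on neither array.

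Among the other inflammatory CC ligands, Ccl5, which attracts T cells and monocytes, gave 14422 in control and 12962 in treated cells, a ratio of 0.932. Ccl9, a myeloid attractant of the mouse, gave 342 and 218, a ratio of 0.661 that lay just outside the limit. Its log2 ratio was -0.60 ± 0.21 (software error), with a Z-score of -1.40. Without scaling, the ratio of Ccl9 was 0.637 and that of Ackr4 0.640, so both passed the limit there. Ccl17, a ligand of Ccr4, gave 59.7 and 47.8, a ratio of 0.831, and Ccl3, a ligand of Ccr1, gave 33.2 and 43.7, a ratio of 1.37. The log2 ratio of Ccl3, 0.45 ± 0.36, had a Z-score of 0.29. Ccl6 was measured on the control array only, at 26.6 against 18.6, which allows no fold, since the control signal was close to the lowest measured one. Ccl1, Ccl4 and Ccl22 were measured on neither array.

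Cx3cl1, a membrane-bound ligand that holds Cx3cr1-bearing monocytes, gave 3473 in control and 2429 in treated cells. The ratio was 0.726 and the log2 ratio -0.46 ± 0.20 (software error), with a Z-score of -1.65. Cxcl16, a membrane-bound ligand of Cxcr6, lay near the lowest measured signal at 25.9 and 29.0, a ratio of 1.16 and a log2 ratio of 0.22 ± 0.43. Xcl1, Cxcl13, Cxcl14 and Cxcl17 and the receptors Cx3cr1 and Cxcr6 were measured on neither array. The same held for Ackr1, Ackr2, Ccr1, Ccr3, Ccr4, Ccr7, Ccr9, Ccr10 and Cxcr5, and the members measured on neither array were 31 in all.

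**Figure D4:**
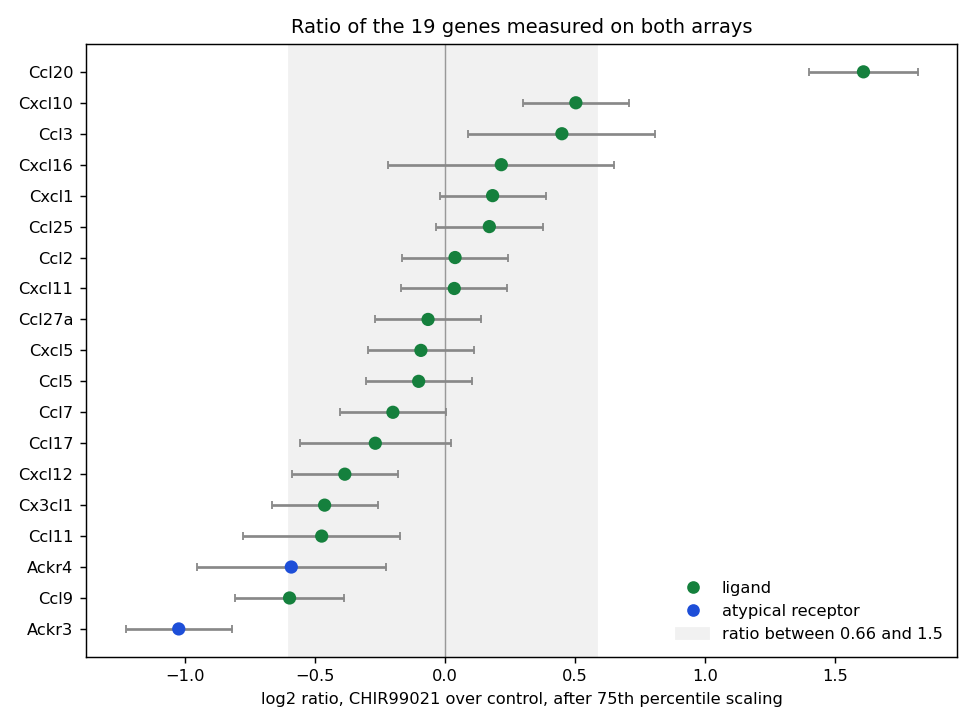
Log2 ratio of CHIR99021-treated over control cells after 75th percentile scaling for the 19 genes measured on both arrays, ordered by ratio, with the standard error from the software's spot error as bars (1 array per condition, so no replicate error). The shaded band spans ratios of 0.66 to 1.5; Ackr3 and Ccl20 lie outside it and Ccl9 and Ackr4 at its lower edge.

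Of the 19 genes measured on both arrays, the log2 ratio was smaller than its software error for 10, namely Ccl2, Ccl5, Ccl7, Ccl17, Ccl25, Ccl27a, Cxcl1, Cxcl5, Cxcl11 and Cxcl16. It was larger for the other 9, of which Ccl20, Cxcl10 and Ccl3 were higher in treated cells and Ackr3, Ackr4, Ccl9, Ccl11, Cx3cl1 and Cxcl12 lower. This error is about the same for every bright spot, so it does not stand in for a replicate.

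Many chemokine genes lie in clusters, and measured and unmeasured genes stood side by side within them. In the cluster at chr11:81850650-81990510 (mm9, from the first to the last probe), Ccl2, Ccl7, Ccl11 and Ccl8 were tested, and Ccl12 and Ccl1 were not well above background. At chr11:83339296-83478111, Ccl5, Ccl9, Ccl6 and Ccl3 were tested, and Ccl4 was not well above background. The cluster at chr5:91190490-91334593 held Cxcl5 and Cxcl1, measured on both arrays, and Cxcl3, measured on 1, and also Cxcl15 and Cxcl2, which were measured on neither array. At chr5:92752191-92788699, Cxcl10 and Cxcl11 were measured on both arrays and Cxcl9 on neither. In the receptor cluster at chr9:123680935-124046639, 2 of 7 genes were tested, Xcr1 and Ccr2, and neither was measured on both arrays. Probes of different members shared at most 14 bases in a row, and the median GC content was 41.7% both in the 33 tested and in the 49 untested probes.

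Promoters were examined for the members with an entry in the RefSeq promoter table (GRCm38.p6), 43 of the 58, from 250 bases before to 50 bases after the annotated start. Motifs were searched on both strands, namely the NF-κB consensus, the TCF/LEF motif read by the β-catenin pathway (CTTTGAA, and with another ending CTTTGAT, or else with CTTTGTA and likewise CTTTGTT), the AP-1 motif (TGANTCA) and the interferon-stimulated response element. The NF-κB consensus was found in 10 of the 43 genes, among them Cxcl1, Cxcl10, Ccl20, Ccl9 and Ccl27a of the 10 ligands with an entry that were measured on both arrays, against 4.51% of all 32851 promoters. It stood in 2 of the other 15 ligands with an entry, Cxcl2 and Cxcl3, and in 3 of the 18 conventional and atypical receptors with an entry, Ackr2, Ccr3 and Ccr6. Of the ligands measured on both arrays, 7 had no entry and were not searched, Ccl2, Ccl5, Ccl7, Ccl11, Cxcl5, Cxcl11 and Cxcl16. The TCF/LEF motif was found in 11 of the 43, Cxcl12, Ccl17 and Ccl25 among them, against 16.9% of all promoters. The AP-1 motif was found in 7 of the 43, against 7.81%, and the interferon-stimulated element in 3, against 3.44%. A gene with several promoters was counted once if any held the motif, whereas the share of all promoters counts each promoter. A match is a description of these letters and does not show binding.

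Promoters of 3 genes are shown because Ackr3 and Ccl20 had the lowest and highest ratios among the members measured on both arrays and Cxcl10 the most motif matches, with motif matches in capitals. The Ackr3 promoter (chr1:90203730-90204029, plus strand) held none of the motifs, the Ccl20 promoter (chr1:83116516-83116815, plus strand) held an NF-κB match at positions -80 to -71, and the Cxcl10 promoter (chr5:92348840-92349139, minus strand) held an interferon element at -213 to -204, NF-κB matches at -159 to -150 and -103 to -94, and an AP-1 motif at -74 to -68. Positions are counted from the annotated start as 0, and none of the matches overlapped.
Ackr3 promoter: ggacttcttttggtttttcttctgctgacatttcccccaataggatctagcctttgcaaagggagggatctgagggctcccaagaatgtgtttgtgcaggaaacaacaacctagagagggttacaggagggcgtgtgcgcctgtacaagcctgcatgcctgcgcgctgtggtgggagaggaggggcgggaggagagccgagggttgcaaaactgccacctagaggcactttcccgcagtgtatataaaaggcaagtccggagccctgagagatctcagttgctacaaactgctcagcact
Ccl20 promoter: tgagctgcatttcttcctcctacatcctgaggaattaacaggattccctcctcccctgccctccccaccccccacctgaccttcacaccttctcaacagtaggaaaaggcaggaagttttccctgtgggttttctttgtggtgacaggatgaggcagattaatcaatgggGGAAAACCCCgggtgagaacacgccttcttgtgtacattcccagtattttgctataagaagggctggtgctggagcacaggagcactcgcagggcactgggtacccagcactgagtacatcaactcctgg
Cxcl10 promoter: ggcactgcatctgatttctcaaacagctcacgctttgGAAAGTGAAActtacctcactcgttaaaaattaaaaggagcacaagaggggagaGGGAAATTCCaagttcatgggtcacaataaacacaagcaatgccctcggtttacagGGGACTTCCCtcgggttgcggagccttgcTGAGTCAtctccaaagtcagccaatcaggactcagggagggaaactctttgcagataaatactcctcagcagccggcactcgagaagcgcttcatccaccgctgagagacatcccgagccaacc

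Other genes of the pathway were taken from a list of partners, and their counts are read against the shares of all tested genes, 9.67% lower and 8.05% higher. Of 9 further ligands, receptors and enzymes on the array, 6 were tested and 1 was lower, Pf4, a platelet CXC ligand, which was measured on the control array only at 35.6 against 13.8 and was at least 1.30-fold lower. Mif, a cytokine that also binds Cxcr2 and Cxcr4, gave 96807 and 112577, a ratio of 1.21, and its receptor Cd74 gave 166 and 163, a ratio of 1.02. Of 17 tested genes of receptor signalling, 1 was higher and 1 lower. Rgs16, which shortens G protein signals, gave 171 in control and 273 in treated cells, a ratio of 1.66 and a Z-score of 1.67. Arrb1, a β-arrestin that carries receptors inward, gave 1031 and 1424, a ratio of 1.43. The other β-arrestin, Arrb2, gave 286 and 285, a ratio of 1.03, and neither passed a limit. Elmo1, part of the Rac activator of migrating cells, was measured on the control array only at 38.3 against 20.6, at least 1.40-fold lower. The leukocyte signalling genes Rac2, Dock2, Pik3cg and Rgs1 were measured on neither array. Gnai2, the inhibitory G protein that chemokine receptors use, gave 10100 and 8453, a ratio of 0.868. The syndecans Sdc1 and Sdc4, heparan sulphate carriers that hold chemokines at the cell surface, gave ratios of 0.972 and 1.02.

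Cytokines that induce chemokines, and their feedback genes, were set beside the ligands. Of 9 such genes, 7 were tested and 1 was higher, where 8.05% of all tested genes were. This was Il6, with 5679 in control and 8393 in treated cells, a ratio of 1.53. Nfkbia and Tnfaip3, inhibitors that NF-κB itself induces, gave ratios of 1.26 and 1.28, from 13633 to 16518 and from 930 to 1151, and Zfp36, which degrades cytokine mRNA, gave 442 and 409, a ratio of 0.960. Tnf gave 79.6 and 76.0, a ratio of 0.990, and Il1a and Il1b were measured on neither array. The receptors Il1r1 and Tnfrsf1a gave ratios of 0.789 and 1.02. The median log2 ratio of the 7 was 0.04, against 0.02 over all tested genes.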

How the data were processed

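Total RNA of mDE6 cells was amplified, labelled with Cy3 and hybridised to Agilent mouse arrays. The authors deposited spot intensity values from which Feature Extraction had subtracted the background (10.7.1.1 in the file headers, 9.5.1.1 in the submitters' processing notes), without normalization between arrays; the Methods name a human array, whereas the headers name mouse build mm9. The deposited files also hold the software's error estimate and flags for each spot, and a table of normalized intensity values, used as an alternative.

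From these, ratios were computed after 75th percentile scaling in Python 3.11.15 (pandas 2.3.3, numpy 2.4.6, matplotlib 3.10.9). Of the spots, 49.8% were well above background in control and 48.3% in treated cells. The main probe of a gene was that with the highest mean scaled signal. Where a probe was measured on 1 array, the fold is a limit, taken against the lowest measured signal of the other array or its own signal there, whichever was higher. Such a limit leaves out spot error, and the fold can be smaller with another background correction. Every member measured on at least 1 array is named with values, and other members by name. No statistical test of the conditions was run, since each has 1 array, whose number limits the precision. The members and gene lists were chosen with earlier results of these data known. Alternatives were other scalings (quantile and cyclic loess with limma 3.58.1 in R 4.3.3), normexp with an offset of 50, filters, floors, probe rules, array rows, uneven spots and Z-scores, and, chosen after seeing the data, leaving out repeat-like probes. The code for the calls was tested on simulated data, which held no background flags and so do not bear on values measured on 1 array. Placement of probes in exons or UTRs was not analysed here. A few genes of the lists are not reported here by name.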

Additional observations from a re-analysis of the deposited data

How the results depend on the processing

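No paired analysis was possible because there was 1 array for each condition. Over 16 alternatives, 390 of 405 ratios of single genes moved by less than the software error of that gene, which is wide for dim spots, and 15 by more, those of Ackr4, Ccl20, Ccl24, Ccl25, Ccl8, Ccr2, Cxcl3, Cxcr4 and Xcr1. Filters and rules for choosing probes cannot change the ratio of a gene with 1 probe, so much of this count was fixed in advance. Ackr3 had ratios of 0.474 to 0.522 and Ccl20 of 2.43 to 3.24 wherever a value was given. The later rows hold both, so the earlier rows alone gave no value for them.

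Of the 5 lower and 4 higher genes by ratio, the requirement of a signal well above background on both arrays left 1 and 1 (5.77% and 5.06% of all genes), the earlier rows 1 and 1 (7.29% and 5.16%), and normexp 2 and 2, where 4.83% of all tested genes were lower and 4.8% higher. The calls lost with normexp were those of Cxcr4 (0.816), Xcr1 (0.686), Ccl24 (0.836), Ccl8 (1.36) and Ccr8 (1.22). A floor on low signals left 4 lower and 2 higher (7.85% and 7.5% of all genes), and leaving out uneven spots 2 lower and 3 higher (7.66% and 5.98%). No scaling gave 7 lower and 4 higher (10.8% and 7.08% of all genes), and the percentile over detected probes 7 and 4 (10.8% and 7.09%). Cyclic loess gave 6 and 4 (9.9% and 7.69%), as did taking the probe with the ratio farthest from 1 (12.5% and 10.9%). Without a filter on dim probes, 12 of 58 were higher and 7 lower, against 9.1% and 9.05% of all genes. The median log2 ratio was then 0.19, where that of all genes was 0.18. By ratio and Z-score, normexp gave 2 lower genes in place of 1, and 1 mean and SD for the whole array 2 lower and 1 higher in place of 1 and 2. With the looser flag for a positive and significant signal, 37 members in place of 22 were detected on the CHIR99021 array, and 35 in place of 24 on the control array, against 63.2% and 65.0% of all genes. Signals under 23.7 in control or 26.3 in treated cells have no order, and 8 of the 27 tested genes rest on 1 array. The ratios of Ccl2, Ccl25, Cxcl11, Ccl27a and Ccl6 changed sides of 1 between alternatives, and the cause of these shifts was not tested.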
